A study of Drosophila melanogaster with 3 samples.

Results

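Binding of Knirps in the fruit fly embryo was mapped by ChIP-seq, in which chromatin bound by a protein is pulled down with an antibody and its DNA is sequenced, and the summits described here lay at promoters with no divergent partner gene around them in the annotation of protein-coding genes. Of the 7129 peaks of the authors' optimal list on genome build dm6, 2123 were members (29.8%), chosen by position. Their summit was at most 500 bp from an annotated start of a protein-coding transcript, and summits within 500 bp of both start sites of a head to head pair were left out. Such a pair has a minus-strand start at most 1000 bp on the lower-coordinate side of a plus-strand start of another gene. The remaining optimal peaks comprised 516 head to head summits and 4490 summits more than 500 bp from any start site. All 3 samples were biological replicates of 1 group, whole embryos of mixed sex aged 0 to 14 h from a transgenic line that stably expresses Knirps with GFP (green fluorescent protein) at its C terminus, and the antibody was against GFP. The extent and the copy number of the transgene are not given in the sources used here, an input or untagged sample was not analysed here, and embryonic stages and tissues were not separated. The files hold no read numbers, so the depth is unknown.

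Fly promoters come in different types. Divergent promoters serve neighbouring genes on opposite strands and are frequent at housekeeping genes, whose start regions often carry the DRE element, motif 1 and binding sites of the insulator protein BEAF-32. Promoters of developmental regulators more often carry an initiator, a downstream pause button and sites for the GAGA factor Trl, a protein that keeps chromatin open, while a TATA box marks many tissue-specific genes. Knirps is a gap protein with a zinc-finger domain of the nuclear receptor type, known as a short-range repressor of segmentation genes in the trunk and as a regulator of tracheal branching.

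The strongest members show which sequence lies under the summits. The 201 bases centred on the summit are given for 8 of the 9 strongest, from Release 6 of the genome assembly in RefSeq, whose coordinates are those of dm6, each in the direction of its gene. Capitals mark 5 words on either strand, GAGAG (the core of a Trl site), AGAGCA (a simplified Knirps word), TATAAA (the TATA box), TCAGT (an initiator core) and CACACA (a CA repeat). The regions are chr2L:18944344-18944544 for ssp3, chr3R:16280314-16280514 for gish, chr3L:19590511-19590711 for CG14100, chrX:2703778-2703978 for Ugalt, chr3L:22408097-22408297 for Ten-m, chr3R:28585411-28585611 for fkh, chr3R:26006274-26006474 for E(spl)mbeta-HLH and chr3R:16242584-16242784 for tara. Those of gish and tara are on the plus strand and the others on the minus strand.
ssp3: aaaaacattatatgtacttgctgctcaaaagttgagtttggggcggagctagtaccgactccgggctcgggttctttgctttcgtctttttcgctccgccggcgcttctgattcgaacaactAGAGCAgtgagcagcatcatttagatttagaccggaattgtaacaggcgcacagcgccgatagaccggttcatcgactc
gish: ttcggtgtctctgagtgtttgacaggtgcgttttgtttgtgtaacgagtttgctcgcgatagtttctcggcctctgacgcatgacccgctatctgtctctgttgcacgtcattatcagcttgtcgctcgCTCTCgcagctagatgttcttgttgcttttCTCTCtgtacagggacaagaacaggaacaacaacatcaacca
CG14100: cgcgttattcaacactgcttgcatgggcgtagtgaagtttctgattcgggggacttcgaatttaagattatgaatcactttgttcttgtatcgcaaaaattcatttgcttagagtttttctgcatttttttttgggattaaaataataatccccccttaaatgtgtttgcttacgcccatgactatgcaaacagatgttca
Ugalt: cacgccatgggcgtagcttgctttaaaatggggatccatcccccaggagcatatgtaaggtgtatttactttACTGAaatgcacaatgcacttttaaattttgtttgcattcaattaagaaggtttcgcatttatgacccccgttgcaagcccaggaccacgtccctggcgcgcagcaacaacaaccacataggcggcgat
Ten-m: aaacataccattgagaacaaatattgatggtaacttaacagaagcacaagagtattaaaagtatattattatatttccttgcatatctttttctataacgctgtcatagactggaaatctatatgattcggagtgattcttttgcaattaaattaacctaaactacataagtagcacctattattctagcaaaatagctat
fkh: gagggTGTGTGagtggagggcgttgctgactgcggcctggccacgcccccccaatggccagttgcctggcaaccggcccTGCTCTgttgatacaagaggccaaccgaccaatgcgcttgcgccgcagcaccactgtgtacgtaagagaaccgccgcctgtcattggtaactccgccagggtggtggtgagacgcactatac
E(spl)mbeta-HLH: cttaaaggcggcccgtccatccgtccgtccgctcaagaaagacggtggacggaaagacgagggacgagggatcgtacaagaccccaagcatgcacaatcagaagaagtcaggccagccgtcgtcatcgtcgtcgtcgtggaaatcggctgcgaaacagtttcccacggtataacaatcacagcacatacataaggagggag
tara: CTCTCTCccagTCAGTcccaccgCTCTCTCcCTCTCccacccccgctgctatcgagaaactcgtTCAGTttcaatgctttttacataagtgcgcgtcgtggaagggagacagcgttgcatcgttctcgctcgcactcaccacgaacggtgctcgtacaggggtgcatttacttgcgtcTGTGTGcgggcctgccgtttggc

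The words were spread unevenly among these sequences. That of tara held GAGAG at 5 places, some of them overlapping, TCAGT at 2 and CACACA at 1, and that of gish held GAGAG at 2 places. AGAGCA occurred once at ssp3 and once at fkh, where CACACA was also present, and TCAGT occurred once at Ugalt. The sequences of CG14100, Ten-m and E(spl)mbeta-HLH held none of the 5 words, and no TATAAA lay in any of the 8.

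The same members led the lists of the replicates. The deposited signal value, the authors' measure of peak strength on a scale that is not stated, was 4913 at ssp3, the second strongest of all optimal peaks, with rank 1, 2 and 2 in replicates 1, 2 and 3. At gish, which encodes a casein kinase, it was 2251 with ranks 16, 11 and 13. At CG14100 it was 2191, with ranks 9, 17 and 18. These members kept their place near the top of each list. Ugalt, a transporter of UDP-galactose, had a value of 2046 with ranks 13, 28 and 17, and its start site has a head to head partner beyond the reach of the summit. Ten-m, a transmembrane teneurin, had 2000.4 with ranks 14, 16 and 21. The gut and salivary gland regulator fkh had 1715, with ranks 29, 25 and 62. Further down, the ranks spread more widely between replicates. The Notch-responsive repressor gene E(spl)mbeta-HLH (1647) ranked 91, 23 and 31, and the trithorax group gene tara (1645) ranked 39, 40 and 35. The glycolytic gene Gapdh2 (1337) ranked 176, 117 and 20, so replicate 3 placed it far above the other replicates.

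Several of the other 20 strongest members lay at genes of transcription factors and chromatin regulators. They included the transcription factor gene Sox14 (signal value 1680), the HMG-box gene HmgZ (1530), the Polycomb gene ph-d (1372), the Hedgehog effector ci (1371), the zinc-finger gene bowl (1352) and the forkhead gene FoxK (1325). The neuronal RNA-binding protein gene elav (1447), CG8034 (1444), the wing vein gene px (1317) and Drat (1301) were also among the 20. The share of transcription factor and chromatin regulator genes as a whole among all members was not counted. Of the 20, only bchs, which encodes a BEACH-domain protein, had its summit downstream of the start site (410 bp, signal value 1364). Among the strongest 100 peaks of the whole optimal list, 28 were members, and 26 of those lay upstream.

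**Figure D1:**
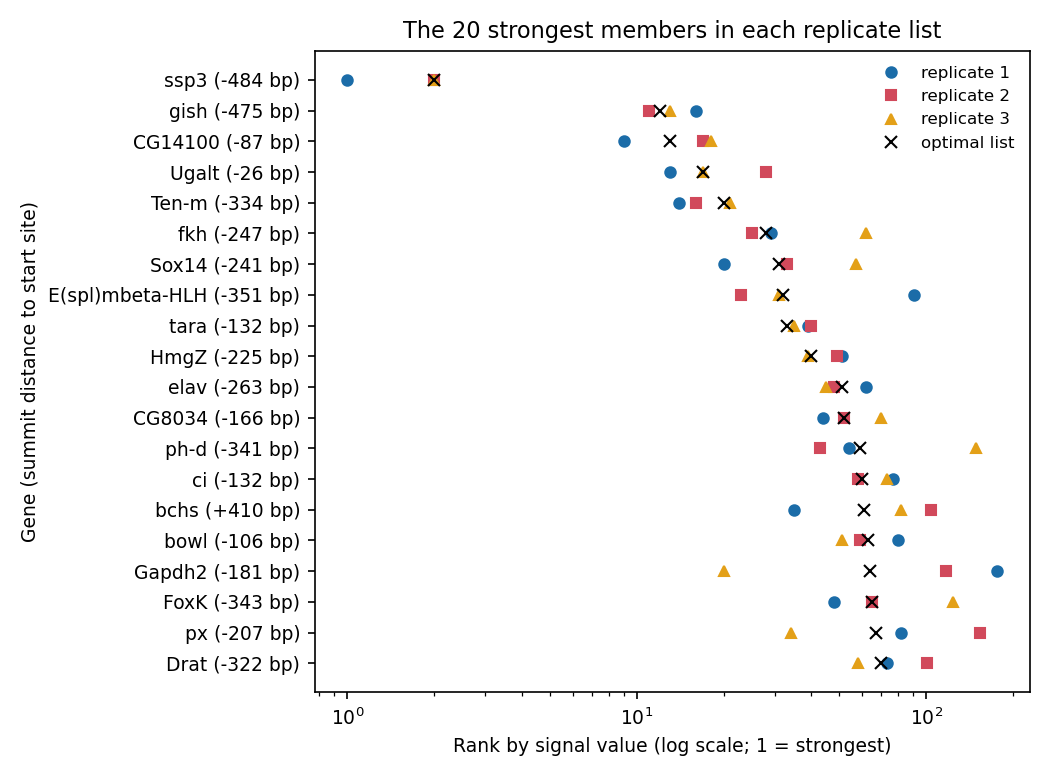
Rank by signal value (log scale, 1 is the strongest) of the 20 strongest members in each replicate's list and in the optimal list, with the distance of the summit from the start site beside each gene (negative is upstream). The member at ssp3 ranked 1, 2 and 2 in the replicates, whereas Gapdh2 ranked 176, 117 and 20.

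Most members lay upstream of the start site. Of the 2123, 1297 were upstream (61.1%, 95% Wilson interval 59.0% to 63.1%) and 826 downstream, with the median summit 59 bp upstream. Among the 7129 strongest peaks of each replicate the upstream share was 62.4%, 58.6% and 60.1% (60.4% ± 1.93, SD, n = 3). In the 22871 peaks of the pooled list that rank below the optimal list, 4272 met the same rule (18.7%), and 51.1% of them were upstream. The difference of 9.95 percentage points passed Fisher's exact test on numbers of peaks (p = 5.23e-14, two-sided). When only the outermost start site of each gene was used, 52.5% of members were upstream. The difference from the lower-ranked peaks was then 6.26 points (p = 6.8e-05, Fisher's exact test). In all tests here the peaks are the units, so the p-values do not measure the spread between embryo samples, and summits at one promoter are not independent.

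Positions were densest just upstream of the start site and thinned out faster on the downstream side. In steps of 100 bp toward the gene, the upstream bins held 94, 176, 271, 354 and 402 members and the downstream bins 358, 168, 106, 92 and 102. A share of 35.9% (762) lay at most 100 bp from the start site, and 756 lay 1 to 200 bp upstream. The members nearest to the limit of 500 bp were at sina (500 bp upstream, signal value 281), bdg (497 bp downstream, 856) and CG9743 (496 bp upstream, 329). Just outside it were summits at Shrm (501 bp upstream, 357), CG7987 (502 bp downstream, 215) and CAP (503 bp upstream, 537).

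**Figure D2:**
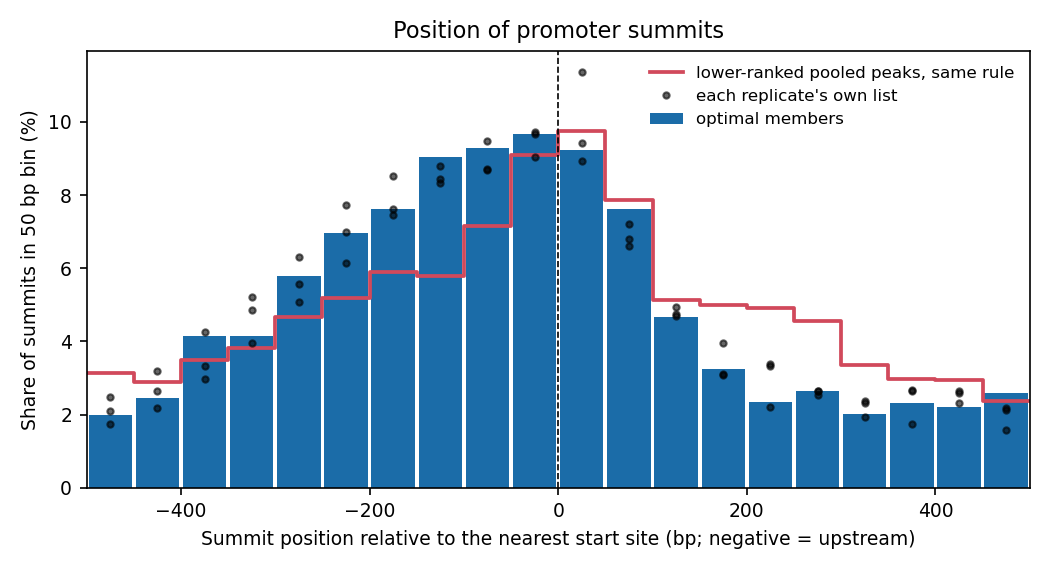
Share of summits in bins of 50 bp (percent) against their position relative to the nearest start site (bp, negative is upstream), for the members (bars), each replicate's own strongest 7129 peaks (points) and the lower-ranked pooled peaks under the same rule (line). The members exceed the line on the upstream side from 400 bp to the start site, and lie below it from there to 450 bp downstream.

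A count of summits is not a count of promoters. No optimal summits lay closer together than 199 bp, and 644 members (30.3%) had another optimal summit within 250 bp, whereas only 65 had their nearest one farther off, up to 500 bp away. Head to head summits (25.6%) and summits over 500 bp from a start site (29.1%) had such neighbours too. With only the strongest of summits within 250 bp kept, 1806 members remained and 61.2% of them were upstream. The 2123 members belonged to 1619 genes, of which 1223 had 1 summit and 316 had 2. The junction scaffold gene pyd, CG31523 and the splicing regulator gene ps had 6 each, and bowl and the kinase gene Pdk1 had 5 each. Kept only when over 250 bp apart, these fell to 3 for pyd, 4 for CG31523, 4 for ps, 3 for bowl and 3 for Pdk1. The 6 summits of pyd all lay upstream of one of its start sites and ranged in signal value from 253 to 713.

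The annotation around the members differed between the sides and between kinds of promoter. Upstream members lay in intergenic sequence in 50.5% of cases and in introns in 39.6%. Downstream members lay in a 5' UTR in 71.5% and in an intron in 24.3%. Only 43 of all 2123 fell in coding exons. Each member was assigned to the gene of its nearest start site. However, 71 lay within 500 bp of start sites of 2 or more genes, and 206 (9.7%) lay in the body of another gene. A promoter was called single when all start sites of the gene lay within 100 bp, and alternative otherwise. Single promoters had 832 members (503 upstream, 329 downstream) and alternative promoters 1291 (794 upstream, 497 downstream). Members at single promoters were intergenic in 51.7% of cases, against 17.4% at alternative promoters. Inner start sites lie within their own gene by definition. The label of the class held with exceptions. The nearest start site of 247 members (11.6%) had a head to head partner with only 1 of the 2 starts in reach, and 81 members (3.82%) lay within 500 bp of both starts of a pair that includes a noncoding gene.

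Members were found again in the replicates about as often as other peaks. A member was recovered when a replicate had a summit within 100 bp among its strongest 7129 peaks, and the median offset was 20, 11 and 13 bp in replicates 1 to 3. The replicates recovered 74.2%, 80.0% and 78.4% of the members (77.5% ± 3.01, SD, n = 3). All 3 held 1108 of them (52.2%), close to the 52.1% of all optimal peaks, while 635 were held by 2, 344 by 1 and 36 by none. Head to head summits were recovered in all 3 in 48.3% of cases, and the difference of 3.93 points did not pass Fisher's exact test (adjusted p = 0.232). It did pass at 1000 bp to the start site (5.92 points, adjusted p = 0.00803), by any overlap (5.94 points, adjusted p = 0.0128) and without replicate 1 (7.53 points, adjusted p = 0.00342), by the same exact test. Against all other optimal peaks (52.0%) the members differed by 0.173 points (adjusted p = 0.897, Fisher's exact test), and the sign turned when replicate 3 was left out (-3.68 points, adjusted p = 0.00588, the same exact test). The optimal list was made from the same replicates, so recovery is not independent of membership.

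Upstream members were stronger and more often recovered than downstream members. The share in the strongest 25% of the optimal list, which holds 25% of all optimal peaks by definition, was 30.2% upstream (392 of 1297) and 18.5% downstream (153 of 826), with an adjusted p of 4.76e-09 by Fisher's exact test. Median signal values were 307 upstream and 275 downstream. All 3 replicates recovered 56.6% of upstream and 45.3% of downstream members, a difference of 11.3 points (adjusted p = 1.5e-06, Fisher's exact test). Recovery moves with strength. From the strongest to the weakest of 4 equal groups of members it was 90.0%, 75.7%, 39.7% and 3.21%, while the upstream share was 72.1%, 59.1%, 60.6% and 52.5%. Within the strongest 50% of the optimal list the recovery of upstream members exceeded that of downstream members by 3.51 points (adjusted p = 0.309, Fisher's exact test). By position, the share among the strongest 25% was 35.1% at 200 to 300 bp upstream and 15.1% in the first 100 bp downstream. Recovery was 62.0% and 47.8% there, and 35.8% at 200 to 300 bp downstream.

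**Figure D3:**
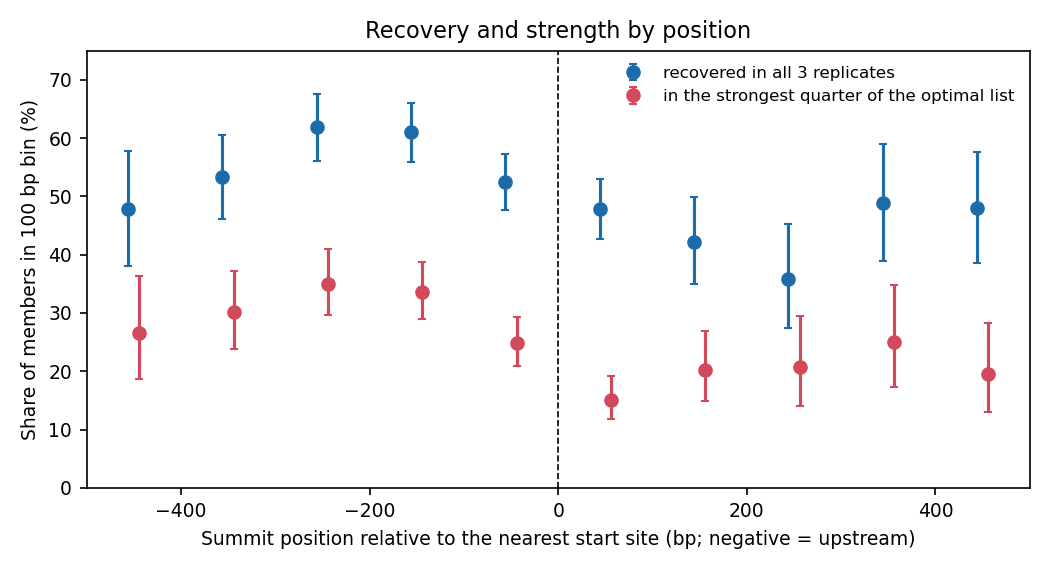
Share of members recovered in all 3 replicates and share in the strongest 25% of the optimal list (percent, points with 95% Wilson intervals) in bins of 100 bp relative to the start site (bp, negative is upstream). Recovery is 62.0% at 200 to 300 bp upstream and 47.8% in the first 100 bp downstream, where the share of strong members is 35.1% and 15.1%.

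The strongest downstream members lay at genes of varied roles. At alternative promoters the first were Hsp83, which encodes the chaperone Hsp90 (120 bp downstream, signal value 1209), and Pdss2 (138 bp, 1118). Hsp83 ranked 220, 254 and 22 in replicates 1 to 3, so replicate 3 again stood apart. They were followed by CG15771 (39 bp, 1096), the JAK/STAT factor gene Stat92E (373 bp, 1090) and the Egfr ligand gene spi (144 bp, 1040). The nearest start sites of Hsp83, Pdss2 and CG15771 have a head to head partner beyond the reach of the summit. At single promoters bchs was followed by the Bearded family gene Tom (121 bp, 1014). CG5335 had its summit 8 bp downstream (972), the Kekkon family gene kek5 423 bp downstream (922) and the Hippo pathway gene kibra 325 bp downstream (849). The summit at kibra had none within 100 bp in the list of replicate 3. Other strong members missing in this way from 1 replicate were the second summit of HmgZ (1016), CG13921 (956), the Iroquois gene mirr (919) and the integrin gene scb (827), each from replicate 1.

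Members at single promoters were weaker than those at alternative promoters. In the strongest 25% of the optimal list were 21.8% of the single-promoter members (181 of 832) and 28.2% of the alternative-promoter members (364 of 1291), with an adjusted p of 0.00187 by Fisher's exact test. The adjusted p was 0.057 by the same exact test when start sites spanning up to 500 bp counted as a single promoter. Recovery in all 3 replicates was 51.3% at single and 52.7% at alternative promoters (adjusted p = 0.711, Fisher's exact test). By any overlap that difference was -8.63 points (adjusted p = 4.16e-05) and within 200 bp it was -5.33 points (adjusted p = 0.0281), by Fisher's exact test. Of all members 25.7% were among the strongest 25%, and of head to head summits 24.2%, a difference of 1.45 points that did not pass (adjusted p = 0.535, Fisher's exact test).

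The sequence around the summits differed between members and head to head summits. Each of 16 words was sought on both strands, up to 100 bp to either side, and compared in 4 ways by two-sided Fisher's exact tests adjusted together by Benjamini-Hochberg (64 tests, of which 50% passed). Against head to head summits 11 words passed, 5 of them more frequent in members. GAGAG was present at 43.1% of members and 18.02% of head to head summits (adjusted p = 6.28e-26, Fisher's exact test). In all optimal peaks its share was 37.1%, and in summits over 500 bp from a start site 36.5%. In the replicates' own lists the shares were 43.1%, 43.8% and 43.4% in members and 17.3%, 19.6% and 17.8% in head to head summits, so the groups did not overlap. CACACA stood at 30.4% and 17.4% (adjusted p = 1.52e-08), TCAGT at 35.2% and 26.0% (adjusted p = 0.000225), CGGACG, a pause button core, at 6.69% and 2.52% (adjusted p = 0.00049) and AGAGCA at 15.8% and 11.4% (adjusted p = 0.027), all by Fisher's exact test. Among all optimal peaks CACACA stood at 28.9%, TCAGT at 30.3%, CGGACG at 4.63% and AGAGCA at 14.1%. AGAGCA did not pass without replicate 1, 2 or 3 (4.12, 4.79 and 4.43 points, adjusted p = 0.158, 0.0865 and 0.106, Fisher's exact test). Fewer peaks were left in these settings, while the main difference was 4.35 points. With words within 50 bp it was 1.94 points (adjusted p = 0.308, the same exact test).

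Words of housekeeping promoters and the TATA box were less frequent in members than in head to head summits. TATAAA occurred at 17.3% of members and 33.1% of head to head summits (adjusted p = 6.66e-13, Fisher's exact test). CGATA, the core of the BEAF-32 site, occurred at 27.3% and 41.9% (adjusted p = 4.07e-09), and TATCGATA, the DRE core that contains it, at 2.17% and 7.36% (adjusted p = 4.46e-07), by the same exact test. GTATTTT, part of motif 6, stood at 6.69% and 14.0% (adjusted p = 1.84e-06), the E-box CAGCTG at 12.2% and 19.8% (adjusted p = 6.38e-05) and GTCACAC, part of motif 1, at 3.91% and 8.33% (adjusted p = 0.000264), each by Fisher's exact test. Among all optimal peaks TATAAA stood at 17.3%, CGATA at 24.4%, TATCGATA at 1.35%, GTATTTT at 6.21%, CAGCTG at 11.3% and GTCACAC at 3.07%. Every one of the differences from head to head summits had the same direction in 3 of 3 replicate lists. These lists share many sites, so the agreement is not independent support. Base composition moved with the differences. The median G and C content of the window was 45.8% in members and 38.3% in head to head summits, and its part in the differences was not tested.

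**Figure D4:**
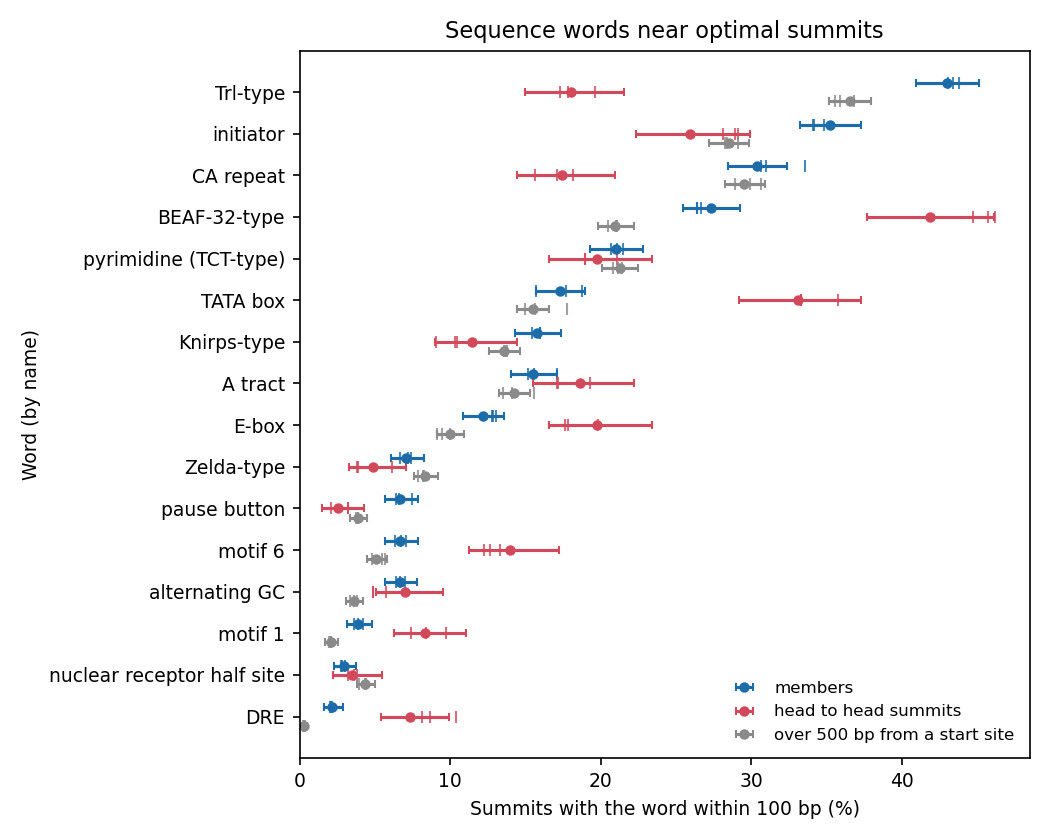
Share of summits with each word, given by name, within 100 bp (percent), for members, head to head summits and summits over 500 bp from a start site. Points with bars are the optimal list with 95% Wilson intervals, and ticks are the replicates' own lists. The Trl-type word stands at 43.1% in members and 18.02% in head to head summits, and the TATA box at 17.3% and 33.1%. In summits over 500 bp from a start site they stand at 36.5% and 15.5%.

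Against all other optimal peaks the members differed less. In that comparison 9 words passed and 8 were more frequent in members. GAGAG was present at 43.1% of members and 34.6% of other optimal peaks (adjusted p = 3.83e-10), and TCAGT at 35.2% and 28.2% (adjusted p = 5.74e-08), by Fisher's exact test. With the outermost start site of each gene the difference in GAGAG was 0.0536 points (adjusted p = 0.997, Fisher's exact test). The pause button core CGGACG stood at 6.69% and 3.76% (adjusted p = 1.19e-06) and the alternating GCGCGC at 6.64% and 3.96% (adjusted p = 1.21e-05), by the same exact test. The BEAF-32 core CGATA (27.3% and 23.1%), the DRE core TATCGATA (2.17% and 0.999%), the Knirps word AGAGCA (15.8% and 13.4%) and the motif 1 word GTCACAC (3.91% and 2.72%) completed the 8. AGGTCA, a core bound by many nuclear receptors, was the exception, at 2.92% of members and 4.25% of other optimal peaks (adjusted p = 0.0174, all by Fisher's exact test). With replicate 3 left out 4 words passed. CGATA did not pass without replicate 1, 2 or 3 (3.15, 2.68 and 2.49 points, adjusted p = 0.0613, 0.115 and 0.135, Fisher's exact test). At 1000 bp to the start site CGATA differed by 0.803 points (adjusted p = 0.598) and TATCGATA by 0.0738 points (adjusted p = 0.879), by the same exact test. TATCGATA and AGGTCA also did not pass without replicate 2 or 3, GTCACAC without replicate 1 or 3 and AGAGCA without replicate 3. Median G and C content was 45.8% in members and 45.3% in other optimal peaks, and its part was not tested.

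The positions of 3 words relative to the summit were read in members. In steps of 20 bp across 300 bp to either side, in the direction of the gene, AGAGCA was centred in between 1.22% and 2.07% of members in any step, with 1.93% and 1.79% in the steps just upstream and just downstream of the summit. GAGAG stood at 6.26% and 7.21% in these steps. It was more frequent in the steps from 80 to 100 bp upstream (8.62%) and downstream (8.34%), and at 4.33% and 4.95% in the outermost upstream and downstream steps. In summits over 500 bp from a start site GAGAG stood at 5.12% and 5.21% next to the summit. It was at 5.55% and 6.12% at 80 to 100 bp, and at 3.65% and 3.83% in the outermost steps. In head to head summits these shares were 0.775% and 1.94%, 1.55% and 1.74%, and 1.74% and 3.49%. In members CGATA stood at 4.05% and 4.004% in the steps next to the summit and at 2.83% and 2.17% in the outermost ones. From the strongest to the weakest of 4 equal groups of members, GAGAG was present at 47.5%, 45.4%, 41.2% and 38.1%, and AGAGCA at 18.5%, 15.4%, 13.6% and 15.7%.

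Upstream and downstream members carried different words. GAGAG was present at 47.5% of upstream and 36.1% of downstream members (adjusted p = 1.33e-06), TATAAA at 20.1% and 12.8% (adjusted p = 5.39e-05) and AGGTCA at 3.70% and 1.69% (adjusted p = 0.0185), by Fisher's exact test. Lower upstream than downstream were CACACA at 26.7% and 36.2% (adjusted p = 1.9e-05), GCGCGC at 5.09% and 9.08% (adjusted p = 0.00132), CGGACG at 5.47% and 8.60% (adjusted p = 0.0146) and the pyrimidine word CTTTTC at 19.1% and 24.0% (adjusted p = 0.0185), by the same exact test. In replicates 1 to 3 the shares of GAGAG were 46.2%, 48.9% and 48.1% upstream and 37.9%, 36.6% and 36.2% downstream. All 7 words also passed without members whose nearest start site has a partner. With replicate 3 left out 3 of the words passed. GAGAG differed by 6.21 points without replicate 2 (adjusted p = 0.0818) and 6.68 points without replicate 3 (adjusted p = 0.0598), by Fisher's exact test. CACACA did not pass without replicate 1, 2 or 3 (-4.70, -5.02 and -5.45 points, adjusted p = 0.149, 0.125 and 0.103) or at 250 bp to the start site (-3.35 points, adjusted p = 0.221), by the same exact test. AGGTCA and CGGACG lost their call without replicate 3 and CTTTTC without replicate 1. Median G and C content was 45.3% upstream and 46.3% downstream, and its part was not tested.

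Single and alternative promoters differed most in GAGAG. It was present at 33.9% of members at single and 49.0% of members at alternative promoters (adjusted p = 1.7e-10, Fisher's exact test), with 37.5%, 37.3% and 36.2% at single and 46.5%, 48.0% and 48.0% at alternative promoters in the replicates. CACACA stood at 23.8% and 34.6% (adjusted p = 7.19e-07, Fisher's exact test). The words of housekeeping promoters ran the other way. TATCGATA was present at 3.49% of members at single and 1.32% at alternative promoters (adjusted p = 0.00319), GTCACAC at 5.53% and 2.87% (adjusted p = 0.00716) and CGATA at 30.05% and 25.6% (adjusted p = 0.0496), by Fisher's exact test. These 3 lost their call whenever 1 replicate was left out, while GAGAG and CACACA kept theirs under all 16 other settings run.

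Seen from the promoters, 1957 of 13423 start sites without a head to head partner had a member within 500 bp (14.6%), and the replicates gave 13.9%, 14.1% and 15.4%. At single promoters the share was 9.50% (Wilson interval 8.85% to 10.2%) and at alternative promoters 20.5% (19.5% to 21.5%). The replicates gave 8.77%, 8.98% and 9.92% at single and 19.8%, 20.01% and 21.7% at alternative promoters, with no overlap. One summit can serve several nearby start sites of a gene, so start sites at alternative promoters are not independent. The outermost start sites of genes with alternative promoters (21.0%) and the inner ones (20.2%) differed by less than the SD between replicates, which was 1.41 and 0.899. Of 1929 genes with both an outermost and an inner start site to compare, 222 had a member at both, 194 at the outermost only and 223 at an inner only.

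Core promoter words gave different shares of bound start sites. With TCAGT within 10 bp of the start site 21.6% had a member (495 of 2293), with TATAAA 20 to 40 bp upstream 7.22% (76 of 1053), with both 9.44% and with neither 13.7%. In the replicates the initiator set gave 20.02%, 20.9% and 22.2%, and the TATA set 7.50%, 6.84% and 7.98%. In the window from 250 bp upstream to 50 bp downstream, GAGAG was present at 57.3% of start sites with a member and 33.9% of those without one, against 37.3% of all 13423. For AGAGCA these shares were 21.1%, 15.9% and 16.7%, and for TATAAA 29%, 41.9% and 40%. Start sites with GCGCGC (24.0%), CGGACG (23.7%) or GAGAG (22.4%) in this window had a member most often among the 16 words. These shares were not tested. By arm, between 13.3% (2L) and 16% (2R) of start sites had a member, apart from the small chromosome 4 with 8 of 114 (7.02%).

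Lists of genes that regulate embryonic patterning held larger shares of genes with a member than the genome as a whole, in counts that were not tested. Of the 9655 genes with a start site free of a partner, 1465 had a member (15.2%). A gene was counted when any such start site had a member, so genes with more start sites had more chances. The number was 646 of 7006 genes with a single promoter and 819 of 2649 with alternative promoters. The gene lists were not matched to all genes for this. Among 14 tracheal regulators, a list corrected after its values were seen, the number was 12, and 11, 12 and 12 in the replicates. They include the ETS repressor gene aop (signal value 954), the BTB gene rib (904) and the epithelial regulator gene grh (568). Of 35 genes listed as segmentation regulators 24 had a member, and 26, 28 and 22 in the replicates. Strongest in this list were fkh, named above as a gut and salivary gland regulator, ci and bowl. Of 52 signalling ligands and receptors 34 had one (26, 32 and 30 in the replicates), led by the Wingless co-receptor gene arr (1238), spi and the Dpp receptor gene tkv (549). Among 19 nuclear receptors 11 had one, the same number in every replicate. The strongest were knrl, a paralog of kni (681, 70 bp upstream), kni itself (665, 369 bp upstream) and the ecdysone response gene Eip75B (645, 35 bp downstream). At kni, extra copies of the locus from the transgene cannot be told apart from binding. By side, 28 of 33 members at listed segmentation genes and 17 of 22 at tracheal genes lay upstream, against 1297 of all 2123. The number was 20 of 45 at the signalling genes and 14 of 20 at the nuclear receptor genes. It was 16 of 20 at cytosolic ribosomal protein genes and 13 of 23 at Polycomb and trithorax group genes. Small GTPase genes had 8 of 11 upstream and translation factor genes 6 of 11.

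Chromatin regulators and the translation machinery were above the share of all genes too. Of 22 Polycomb and trithorax group genes 12 had a member (14, 12 and 12 in the replicates), led by tara, ph-d and the chromodomain gene kis (1110). Of 38 cytosolic ribosomal protein genes with a start site free of a partner 18 had one, and 18, 18 and 19 in the replicates. RpL23A (848, 70 bp upstream), RpS10b (841, 30 bp upstream) and RpS5a (675, 61 bp upstream) were the strongest. The start site nearest to the RpS5a summit has a partner. Counting every member by its nearest start site, 30 of 86 such genes had one, and 13 of their 30 members lay at a start site with a partner. Translation factor genes had a member in 10 of 31 cases, led by eEF1gamma (956), eIF6 (794) and eIF3d1 (601), and small GTPase genes in 9 of 30, led by Rac2 (470.3), Arl4 (312) and Rab11 (303).

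The other gene lists had few genes with a member in the optimal list, or none. Proteasome subunits had 0 of 26 and mitochondrial ribosomal proteins 0 of 16, with up to 1 and 2 in a replicate. V-ATPase subunits had 1 of 20 (Vha16-1, signal value 203), and 2, 1 and 2 in the replicates. Chaperones had 1 of 21 (Hsp23, 207), but 3, 2 and 4 in the replicates. The strongest chaperone member, Hsp83, is not counted because its start site has a partner. Neuronal ion channels had 0 of 64, cuticle proteins 0 of 91 and chemosensory receptors 0 of 155. In the whole pooled list of 30000 peaks the last 3 lists had 8, 9 and 3 genes with a summit under the same rule, against 3201 of all 9655 genes. By that count V-ATPase subunits had 10 of 20, chaperones 7 of 21, proteasome subunits 5 of 26 and mitochondrial ribosomal proteins 4 of 16. In 8 of the 15 lists the share was above that of all genes. The lists were compiled from general knowledge, with earlier results of these data known.

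**Figure D5:**
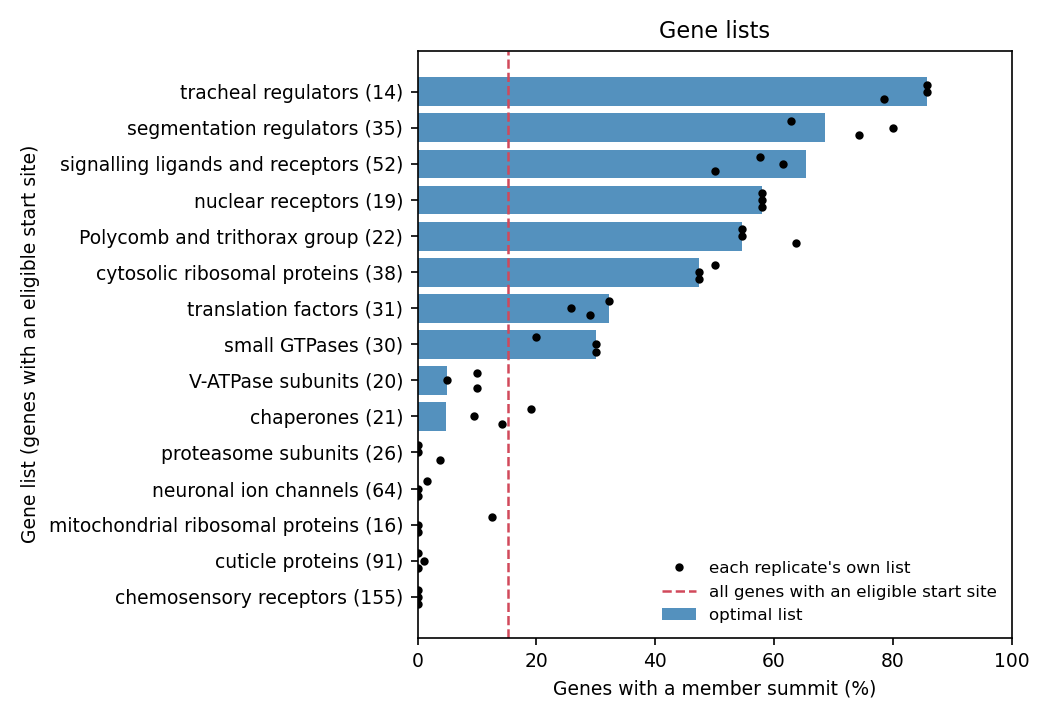
Share of genes with a member (percent) in 15 gene lists, with the number of genes that have a start site free of a head to head partner in brackets. Bars are the optimal list, points the replicates' own strongest 7129 peaks and the dashed line the 15.2% of all genes. The tracheal regulators stand at 85.7% and the chemosensory receptors at 0. The tracheal list was corrected after its values were seen.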

How the data were processed

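The 3 ChIP-seq samples are biological replicates of 1 group, per the labels, with chromatin sheared to 200 to 800 bp. The authors' deposited files are peak lists, a permissive list of 30000 peaks per replicate, another from the pooled alignments, and the optimal list, which was checked to be the 7129 strongest pooled peaks. The deposited signal value is a score of the authors with no stated scale and was used to rank peaks within a list. The deposited −log10 q-value was not used for ranking. The aligner, the peak caller and their thresholds are not given in the sources used here, and lists on dm3 were not used.

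Summits (peak start plus the deposited offset) were assigned to 19252 distinct start sites of 13945 protein-coding genes on 6 arms (Ensembl release 115), with 2667 head to head gene pairs. A summit at distance 0 counts as downstream. Shares were compared by Fisher's exact test, two-sided, with Benjamini-Hochberg adjustment within each of the families (threshold 0.05), in Python 3.11.15 with scipy 1.17.1. Intervals cover counting error over peaks only. The code was tested on simulated data.

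The members and lists were chosen with earlier results of these data known, and the tracheal list was corrected (genes of other roles removed) after its values were seen. The genes named are the 20 strongest members, the 5 strongest of each split by side and promoter, up to 3 of each list, the 5 with the most summits, the 5 strongest not in all replicates and those next to the 500 bp limit.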

Additional observations from a re-analysis of the deposited data

How the results depend on the processing

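Of 32 called word differences, 13 kept their call under every one of the settings run and 0 reversed. Limits are the unknown depth and peak caller, a control sample that was not analysed here, annotated rather than measured start sites, and a pooled list that is not independent of the replicates. Causes of the changes below were not tested. No paired analysis was possible because all replicates belong to 1 group. With the outermost start site of each gene, single and alternative promoters could not be compared, because every gene then has 1 start site.

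The members numbered 1089 in the strongest 50% of the optimal list and 1270 to 1349 without 1 replicate, when only peaks recovered in both others count. The upstream share was 65.1% without summits whose nearest start site has a partner, 52.5% with outermost start sites, 65.9% in the strongest 50% and 63.8% to 66.1% without 1 replicate.

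In Fisher's exact tests of recovery, members exceeded head to head summits by 5.92 points at 1000 bp to the start site (adjusted p = 0.00803), 5.94 points by any overlap (0.0128) and 0.521 to 7.53 points without 1 replicate, and the call was made without replicate 1. Members minus other optimal peaks was -3.68 to 2.56 points without 1 replicate (reversed without replicate 3) and -2.99 points among all peaks of a replicate (0.0101). Upstream minus downstream recovery was 3.51 points in the strongest 50% (0.309). Single minus alternative recovery was -5.33 points within 200 bp (0.0281) and -8.63 points by any overlap (4.16e-05).

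For the strongest 25%, members minus other optimal peaks was -0.0672 to 3.28 points without 1 replicate, and passed without replicate 3 (0.0486). Single minus alternative was -4.25 points with single promoters spanning up to 500 bp (0.057).

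Keeping only the strongest summit per gene thinned the members alone and selects on strength, with which recovery moves, so these values support nothing. By that count recovery in members exceeded head to head summits by 8.45 points (0.00109) and other optimal peaks by 4.68 points (0.00109), and single minus alternative was -8.11 points (0.00109). For the strongest 25% members exceeded head to head summits by 5.36 points (0.0185) and other optimal peaks by 4.88 points (0.000156).

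Words called against other optimal peaks numbered 4 to 7 without 1 replicate. Between upstream and downstream members they numbered 11 without summits whose nearest start site has a partner and 3 to 6 without 1 replicate. Between single and alternative promoters they numbered 3 at 1000 bp, 3 without partnered start sites, 2 in the strongest 50%, 2 without each replicate in turn, 3 with words within 50 bp and 2 with single promoters of 1 position.

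The share of start sites with a member was 10.5% at 250 bp, 17.9% at 1000 bp, 12.4% for outermost sites, 12.9% with 1 summit per gene, 7.90% in the strongest 50% and 9.59% to 9.98% without 1 replicate. Single minus alternative start sites was -11.0 points in the main count, -7.33 at 250 bp, -14.7 at 1000 bp, -10.3 and -10.2 with pair gaps of up to 500 and 2000 bp, -6.58 in the strongest 50%, -7.98 to -7.41 without 1 replicate, -11.5 with single promoters of 1 position and -10.4 with those spanning up to 500 bp. Leaving out pairs with noncoding genes and keeping only the strongest summit within 250 bp were chosen after seeing the data.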
